A study of Mus musculus with 13 samples.

Results

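The septin genes encode GTP-binding proteins of the cytoskeleton, and in the authors' table their symbols had been turned into calendar dates such as 9-Sep. Of 23904 sites in the table, 34 had a symbol of the form number-Sep, and the RefSeq transcript listed for each was used to give its gene. By transcript, 29 of the 34 sites belonged to 8 septin genes, and these 29 are the sites described. The other 5, all written 15-Sep, had a transcript of Selenof, a selenoprotein gene once called Sep15 that is no septin. A further 7 sites with a March date were not septins.

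The study measured DNA methylation in the livers of 13 mice with capture and bisulfite sequencing. After bisulfite treatment, unmethylated cytosines no longer read as cytosine. Of the mice, 7 were fed low fat/low sucrose, called the low diet below, and 6 were fed high fat/high sucrose, called the high diet, and the comparison asks which positions differ between the diets. The sources used here do not give strain, sex, age or time on diet. A site is 1 cytosine position, and its level is the percent of reads there that stayed unconverted, averaged by the authors within each diet. The listed difference is in percentage points, high diet minus low diet, and every listed site had a q-value of at most 0.0100 and a difference of at least 5 points in either direction. Read counts and the values of single mice were not analysed here, so the depth of a site is unknown and its averages carry no SD or n. The samples are whole liver, so a change of methylation within cells and a change in the mix of cells cannot be told apart, and no marker of tissue identity could be checked from methylation at these sites.

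Septins assemble into hetero-oligomers built from members of the SEPT2, SEPT6, SEPT7 and SEPT3 subgroups, which join end to end into filaments, bundles and rings. These lie at the cleavage furrow of dividing cells, beneath the plasma membrane and along actin and microtubules, where they act as scaffolds and diffusion barriers. In liver, Septin4 is known as a stellate cell gene, and methylated SEPT9 DNA in human blood plasma is used as a marker of colorectal cancer.

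The septin sites were more often lower than higher on the high diet. Of the 29 septin sites, 11 (37.9%) were higher and 18 were lower, whereas 57.6% of all listed sites were higher and 42.4% lower. The median listed difference over the septin sites was -10.1 points in the authors' deposited table, beside 7.41 points over all listed sites. The median septin rise was 13.2 points and the median septin fall -13.8 points, beside 11.7 and -11.6 points over all listed sites. Sites of a gene within 1000 bp of each other, which can share reads, were joined into 24 clusters, each taking the direction of the site with the smallest p. Of these clusters 10 (41.7%) were higher, beside 55.6% of the clusters over all genes. The excess of falls was not seen in every subset: within 10000 bp of a listed start 53.8% of 13 septin sites were higher, beside 59.9% of all such sites, and at q under 0.001 it was 5 of 10, beside 59.8%. The median septin difference then turned to 8.46 points within 10000 bp of a start, beside 7.48 points over all such sites. At q under 0.001 it turned to 0.533 points, beside 9.63 points over all such sites, by the authors' deposited table. No listed site differs by so little: 0.533 points is only the midpoint between the smallest of 5 rises and the smallest of 5 falls. Without the 6 Septin11 sites the share higher was 47.8% of 23 sites, and without the 17 Septin9 sites it was 33.3% of 12. No test of the family against other genes was run.

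**Figure D1:**
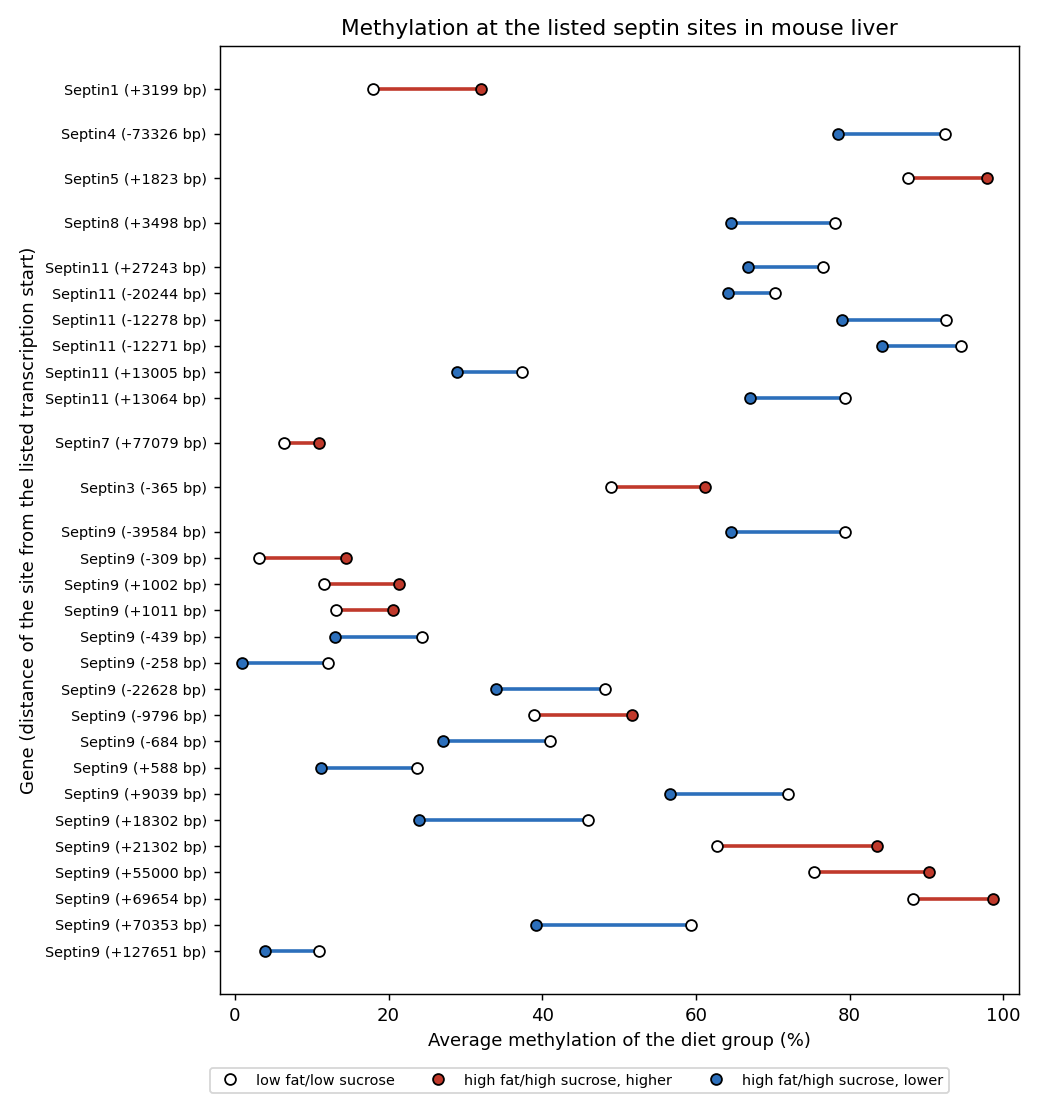
Average methylation in percent (horizontal axis) at each of the 29 septin sites (rows, by gene, with the distance from the listed transcription start), with open points for the low diet (low fat/low sucrose) and filled points for the high diet (high fat/high sucrose). Red marks the 11 sites that were higher and blue the 18 that were lower; all 6 Septin11 sites are blue, and Septin9 has both colours.

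Septin9 carried most of these sites, 17 of 29, and its island and shore sites near the first start went the opposite way to those near later starts. Septin9 is the subunit that sets the longer septin oligomers apart from the shorter, and its isoforms start from several promoters and differ in their first exons. The authors' deposited table measures these sites from 4 Septin9 starts on the + strand of chromosome 11 (mm9), which by the listed distances lie for NM_001113486 at 117060973, NM_001113487 at 117127558, NM_017380 at 117193027 and NM_001113488 at 117193625. The RefSeq promoter windows of Septin9 in GRCm38.p6 have the same spacing, with the later starts 66585, 132054 and 132652 bp after the first in both builds. The windows, 250 bases before to 50 after each start, are printed because the island and shore sites near the first start and those near the later ones went in opposite directions; capitals mark every CpG, the dinucleotide in which cytosine is methylated.
Septin9 start 1, chr11:117199411-117199710, + strand: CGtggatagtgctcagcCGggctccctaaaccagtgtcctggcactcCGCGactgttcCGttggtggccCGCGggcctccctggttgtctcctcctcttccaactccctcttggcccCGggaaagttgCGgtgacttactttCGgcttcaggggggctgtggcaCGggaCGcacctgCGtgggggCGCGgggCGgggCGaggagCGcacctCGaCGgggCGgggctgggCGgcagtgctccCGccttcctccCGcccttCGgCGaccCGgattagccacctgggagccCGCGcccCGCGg
Septin9 start 2, chr11:117265996-117266295, + strand: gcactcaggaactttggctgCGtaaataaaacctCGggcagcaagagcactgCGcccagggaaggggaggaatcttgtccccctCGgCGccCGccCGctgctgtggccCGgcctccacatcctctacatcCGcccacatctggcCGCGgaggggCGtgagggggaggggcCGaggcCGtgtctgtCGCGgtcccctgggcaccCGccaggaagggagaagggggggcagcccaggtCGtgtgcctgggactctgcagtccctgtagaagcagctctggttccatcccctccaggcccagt
Septin9 start 3, chr11:117331465-117331764, + strand: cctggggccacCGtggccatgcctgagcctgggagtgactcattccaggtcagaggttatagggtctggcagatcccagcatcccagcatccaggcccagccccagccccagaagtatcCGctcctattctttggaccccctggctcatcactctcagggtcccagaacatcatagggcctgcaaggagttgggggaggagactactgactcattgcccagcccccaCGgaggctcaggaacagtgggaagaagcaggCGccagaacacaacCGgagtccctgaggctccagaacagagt
Septin9 start 4, chr11:117332063-117332362, + strand: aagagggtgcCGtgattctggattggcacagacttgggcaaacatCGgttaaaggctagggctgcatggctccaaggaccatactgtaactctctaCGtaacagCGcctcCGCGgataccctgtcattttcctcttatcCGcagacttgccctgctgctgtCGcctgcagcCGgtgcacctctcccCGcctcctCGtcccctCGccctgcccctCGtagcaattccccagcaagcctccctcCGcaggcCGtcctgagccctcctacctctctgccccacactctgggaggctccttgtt

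The 4 windows differed in CpG content. The motif CG, which reads the same on both strands and cannot overlap itself, occurred 31 times at start 1, 18 times at start 2, 5 times at start 3 and 15 times at start 4. Of 32851 promoter windows of the same length in RefSeq, 94.6% held at least 1 CG, with a median of 7. At least as many as at start 1 were found in 10.6% of windows, and at least as many as at start 2 in 29.7%. For start 3 the share with at least as many was 62.0%, and for start 4 it was 34.6%. None of the listed Septin9 sites falls inside a printed window; the nearest lies at -258 bp, just before the window of start 2.

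At the first Septin9 start, methylation was low and rose. CpG islands at promoters are mostly unmethylated in normal tissue, and shores are the flanks of an island. In the authors' deposited table the island and promoter site at -309 bp (chromosome 11 at 117060666) averaged 3.16% on the low diet and 14.5% on the high diet, with a difference of 14.1 points (q = 0.000125739). A pair of intronic island shore sites, at 1002 and 1011 bp after that start, averaged 11.6% and 13.2% on the low diet and 21.4% and 20.6% on the high diet in the authors' deposited table. Their listed differences were 9.72 and 8.46 points in the authors' deposited table. Those 2 sites lie 9 bp apart and are not independent.

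At the later starts, the island shores fell. Before start 2, the promoter site at -258 bp (chromosome 11 at 117127302) averaged 12.2% on the low diet and 0.855% on the high diet in the authors' deposited table, with a difference of -10.1 points (q = 0.001303773). The site at -439 bp, 181 bp away at 117127121, went from 24.4% to 13.0% in the authors' deposited table, a difference of -13.8 points. For start 3, the promoter site at -684 bp (117192345) averaged 40.9% and 27.1% in the authors' deposited table, a difference of -18.3 points. The site 588 bp after start 4 (117194213) averaged 23.6% and 11.2% in the authors' deposited table, a difference of -13.3 points. All 4 of these sites carry promoter, shore and intron flags, so those before a start lie in an intron of another transcript.

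Over the 7 Septin9 sites in an island or shore, the 3 nearest to start 1 were all higher and the 4 nearest to later starts were all lower. The mean of the averages went from 9.31% to 18.8% at the former and from 25.3% to 13.0% at the latter in the authors' deposited table. Among all listed sites in islands or shores, 66.1% were higher, and among all promoter sites 65.2%. The division by start was made after the values were seen.

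The other 10 Septin9 sites, outside islands and shores, had both directions, 4 higher and 6 lower, beside 54.4% higher among all listed sites outside both. Of the 17 sites assigned to Septin9, 5 of which carry no promoter, exon or intron flag, 7 (41.2%) were higher, beside 57.6% over the table. At q under 0.001 it was 66.7% of 6, beside 59.8%. The site of smallest p was one of these, at -39584 bp from start 1 (chromosome 11 at 117021391), which fell from 79.3% to 64.6% in the authors' deposited table, a difference of -15.8 points (p = 3.61e-10, q = 1.87e-06). It has no gene flag, and the nearest site listed for another gene, 24472 bp away, belongs to Sec14l1 and was also lower (-19.2 points in the authors' deposited table). Between starts 2 and 3, an intronic site at 117170401 fell from 48.2% to 33.9% in the authors' deposited table, whereas one at 117183233 rose from 39.0% to 51.7%.

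Past start 4 the largest fall and the largest rise over all septins lay 3000 bp apart, both with an intron flag. The fall was at 117211927, from 46.0% to 24.0% in the authors' deposited table, with a difference of -21.3 points (q = 0.001111053). The rise was at 117214927, from 62.8% to 83.6% in the authors' deposited table, with a difference of 17.1 points (q = 0.000880801). Another intronic site, at 117202664, went from 72.0% to 56.6% in the authors' deposited table.

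Farther on, from 55000 bp after start 4, sites carry no promoter, exon or intron flag. There the site at 117248625 rose from 75.4% to 90.3% in the authors' deposited table, by 14.4 points. The sites at 117263279 and 117263978, only 699 bp apart, went in opposite directions, from 88.2% to 98.6% and from 59.3% to 39.2% in the authors' deposited table, the latter by -17.3 points. The last site, at 127651 bp from start 4 (117321276), fell from 10.9% to 3.89% in the authors' deposited table, the smallest difference of the gene at -6.56 points. The site of another gene nearest to it, 23563 bp away, is assigned to 2900041M22Rik and was higher (17.5 points in the authors' deposited table).

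Opposite neighbours over 100 and up to 1000 bp apart were a minority in the table. Over all listed sites, 75.2% of 2182 neighbouring pairs over 100 and up to 1000 bp apart shared a direction, as did 97.1% of pairs at 100 bp or less and 56.1% of pairs over 1000 and up to 10000 bp apart. Of neighbouring pairs of septin sites in the same gene, 3 of 3 at 100 bp or less, 1 of 2 at over 100 to 1000 bp and 6 of 8 at over 1000 to 10000 bp shared a direction. Septin9 was 1 of 11 genes with 17 or more listed sites. Of the 127 genes with 10 or more, 119 had sites in both directions and 36, Septin9 among them, had under 50% of their sites higher.

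**Figure D2:**
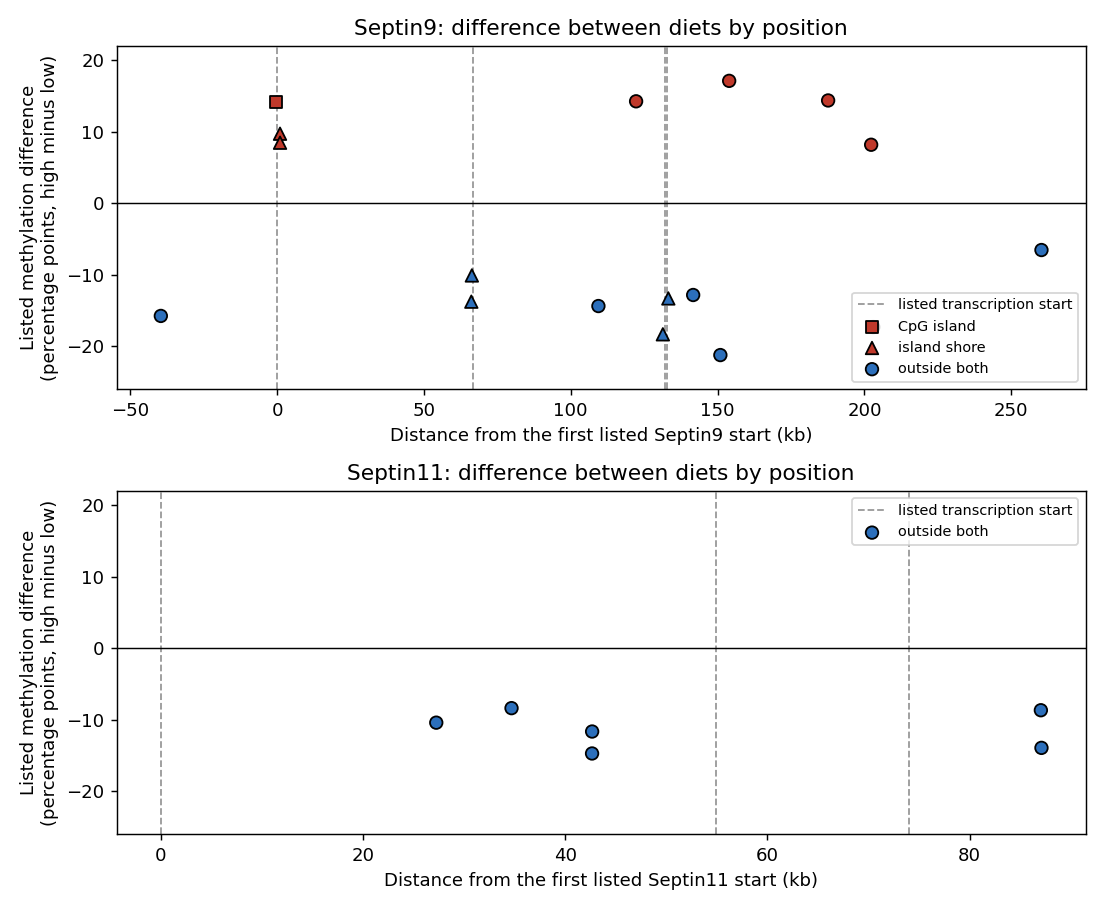
Listed methylation difference in percentage points, high diet minus low diet (vertical axis), against distance in kb from the first listed start of Septin9 (top, 17 sites) and Septin11 (bottom, 6 sites); dashed lines are listed transcription starts, shape gives the CpG island flag, red is higher and blue lower. The island and shore sites at the first Septin9 start are above 0 and the shore sites at the later starts are below 0, and all Septin11 sites are below 0.

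The remaining member of the SEPT3 subgroup with a listed site was Septin3, a septin of neurons. Its 1 site, in a promoter and island shore at -365 bp (chromosome 15 at 82105000), averaged 49.0% on the low diet and 61.1% on the high diet in the authors' deposited table. The listed difference was 13.2 points (q = 0.000282184). Counting this site, 6 septin sites carried a promoter flag, of which 2 were higher and 4 lower. Of the 4 promoter sites whose 2 averages had a mean under 30%, all at Septin9, 3 were lower, beside 26.8% lower among all promoter sites of that level.

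Septin11 was lower at all 6 of its sites. It belongs to the SEPT6 subgroup, whose members sit inside the hetero-oligomer next to SEPT2 and SEPT7 subunits. Its site on chromosome 5 at 93609588 had the smallest p of any septin site, 99th in the whole table (p = 3.93e-11, q = 4.18e-07 in the authors' deposited table). That site averaged 79.4% on the low diet and 67.0% on the high diet in the authors' deposited table, a difference of -13.9 points. The site 59 bp before it, at 93609529, was far less methylated and fell from 37.4% to 28.9% in the authors' deposited table. Both sites carry no promoter, exon or intron flag and lie 13064 and 13005 bp after the listed start they are measured from.

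The other 4 Septin11 sites carry an intron flag. An adjacent pair at 93565135 and 93565142, 7 bp apart, averaged 92.5% and 94.5% on the low diet and 79.0% and 84.2% on the high diet in the authors' deposited table. The first of these had a listed difference of -14.7 points, the largest of the gene, and the second -11.6 points, in the authors' deposited table. At 93557169 the averages were 70.3% and 64.2%, and at 93549724 they were 76.5% and 66.7%, in the authors' deposited table. The 6 sites formed 4 clusters, and none lay within 10000 bp of a listed start or in an island, shore or promoter. No site of another gene was listed within 50000 bp of any of them.

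Among genes with as many sites, having all of them lower was less frequent than having all of them higher. Of 232 genes with exactly 6 listed sites, 14 (6.03%), Septin11 among them, had all 6 lower and 44 (19.0%) had all 6 higher. Of the 6 Septin11 sites, 4 had a mean of the 2 averages of 70% or more, a level at which 66.3% of all listed sites were lower, and 2 lay between 30 and 70%, where 41.3% were.

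Septin8, also of the SEPT6 subgroup, had 1 site, in an intron 3498 bp after the start (chromosome 11 at 53336798). It went from 78.2% to 64.6% in the authors' deposited table, a difference of -14.5 points (q = 0.002625387). The mean of its 2 averages was 71.4%, and at 70% or more 66.3% of all listed sites were lower. All 7 sites of the SEPT6 subgroup were thus lower, 6 of them at Septin11, beside 42.4% of all listed sites. These 7 sites formed 5 clusters. The 2 sites listed within 50000 bp of the Septin8 site and not assigned to a septin were both higher, 1 of them at Sowaha (25.6 points in the authors' deposited table).

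The SEPT2 subgroup had 3 sites at 3 genes. Septin1, known from lymphocytes, had an intronic site (chromosome 7 at 134358761) that rose from 17.9% to 32.0% in the authors' deposited table, a difference of 15.1 points (q = 0.001477252). A site assigned to Mylpf, a muscle myosin light chain gene, lies 293 bp from it and was higher as well (13.3 points in the authors' deposited table), so neighbouring sites are assigned to different genes. Of the 5 sites of other genes within 50000 bp, 3 were higher and 2 lower, the latter at Cd2bp2 (-9.86 points) and Dctpp1 (-29.8 points) in the authors' deposited table. Septin5, a presynaptic septin that binds syntaxin, had a site in an island shore and intron (chromosome 16 at 18628209). It rose from 87.6% to 97.9% in the authors' deposited table, a difference of 9.14 points (q = 0.005659205). The 3 sites of another gene within 50000 bp, all at Tbx1, were higher too.

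Septin4, the stellate cell septin whose gene also yields the pro-apoptotic protein ARTS, had 1 site, at 87318598 on chromosome 11. It fell from 92.5% to 78.5% in the authors' deposited table, a difference of -15.0 points (q = 0.009196236). This site lies at -73326 bp from the Septin4 start yet carries an intron flag, so the intron is not one of the listed transcript. The nearest site of another gene, 18585 bp away, is assigned to Tex14 and was lower too (-21.5 points in the authors' deposited table). This value therefore need not concern Septin4.

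Septin7, the only member of its subgroup and a core subunit of septin oligomers, had 1 site, 77079 bp after the listed start and with no gene flag (chromosome 9 at 25183998). It rose from 6.32% to 11.0% in the authors' deposited table, a difference of 5.30 points, the smallest of all septin sites and near the limit of the table (q = 0.00484869). Of the 13 mouse septin genes, Septin2, Septin6, Septin10, Septin12 and Septin14 had no site in the table. Sites that did not pass the authors' limits were not analysed here, so an absent gene is not shown to be unchanged.

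Over the family, the share of rises was also set beside that of all sites at the same level of methylation. At sites whose 2 averages had a mean under 30%, 5 of 9 septin sites were higher, beside 79.5% of all listed sites. From 30 to 70%, 2 of 9 septin sites were higher, beside 58.7%, and from 70% upward 4 of 11 were higher, beside 33.7%. The septin counts thus lay below the share over all sites in both lower bands and close to it in the upper one, in few sites and with no test. In the lower bands they came mostly from Septin9, with 3 of 7 sites higher under 30% and 1 of 6 from 30 to 70%. Septin11 had 2 sites from 30 to 70%, both lower. The remaining sites of these bands, at Septin1, Septin7 and Septin3, were all higher. By flag, 19 of 29 septin sites (65.5%) were intronic, beside 49.1% of all sites, and none had an exon flag, beside 13.3%. No promoter, exon or intron flag was carried by 8 septin sites (27.6%), beside 34.4% of all sites. Septin9 held 11 of the 19 intronic sites and Septin11 held 4. Of the 19 intronic sites 6 were higher (31.6%), beside 55.6% of all intronic sites.

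**Figure D3:**
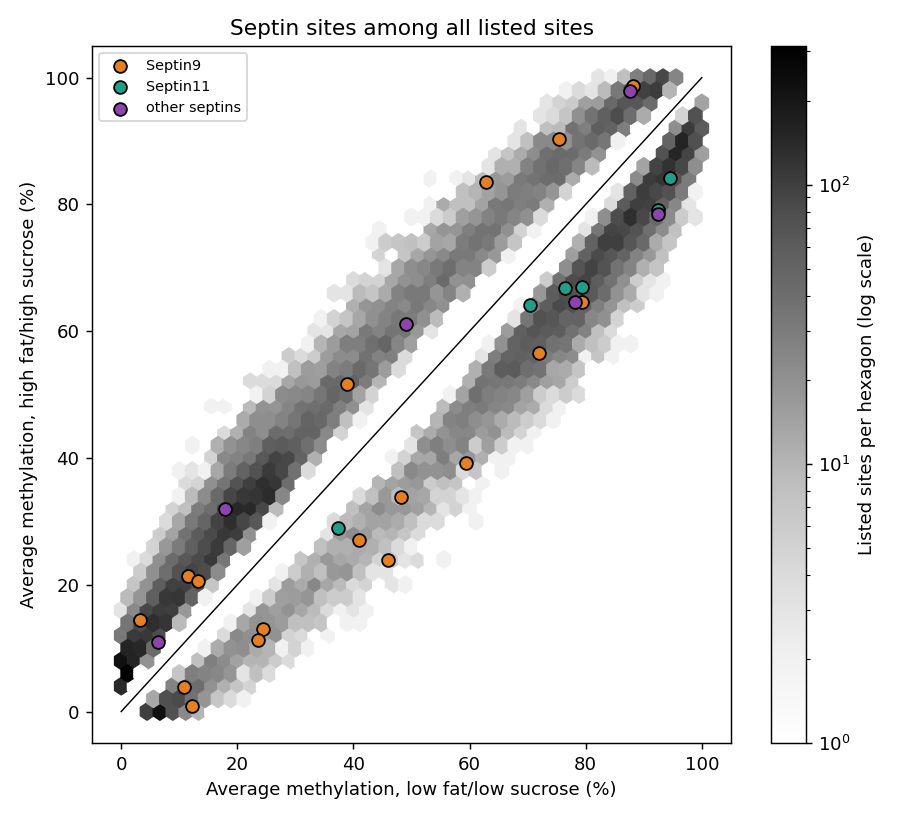
Average methylation on the high diet (vertical axis, percent) against the low diet (horizontal axis, percent) for all 23904 listed sites (grey hexagons, darker for more sites, log scale) and the 29 septin sites (points). The line marks equal levels. The limit of 5 points holds for the listed difference and not for the averages drawn, so some sites lie closer than that to the line. The 18 septin sites below the line include all 6 of Septin11 and reach down to averages of 12.2% and 0.855% at Septin9.

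Genes of proteins that work with septins had both directions. A list of 31 partners held the Cdc42 GTPase and its effectors, RhoA with its activators and kinases, anillin, formins, non-muscle myosins and other binding proteins. Of these, 21 genes (67.7%) had a listed site, beside 39.4% of RefSeq protein-coding genes, with no correction for gene length. They had 54 listed sites, 26 higher (48.1%) and 28 lower, beside 57.6% higher over the table. Cdc42 and Rhoa had no listed site.

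Of the 5 partner genes with the smallest p, Myh9, the heavy chain of non-muscle myosin IIA, had 4 of 9 sites higher. Its leading site (chromosome 15 at 77628593) averaged 0.439% on the low diet and 10.4% on the high diet in the authors' deposited table, a difference of 8.71 points (q = 3.55e-06). The formin gene Diaph1 had 3 of 4 sites lower, led by a difference of -15.7 points (q = 2.72e-05 in the authors' deposited table). The adaptor gene Nck2 had 4 of 4 sites lower, led by 1 on chromosome 1 at 43531101 that went from 72.2% to 62.3% in the authors' deposited table. Cdc42ep3, a Borg protein gene that links Cdc42 to septins, had 3 of 3 lower within a stretch on chromosome 17, from 82.6% to 71.4% at 79744866 in the authors' deposited table. Cit, which encodes citron kinase of the cleavage furrow, had 5 of 7 higher, but its leading site (chromosome 5 at 116412243) fell from 99.7% to 90.0% in the authors' deposited table.

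The 5 sites dated 15-Sep belonged to Selenof, which encodes a selenoprotein of the endoplasmic reticulum. All 5 were higher, beside 57.6% of all listed sites. They formed 2 clusters on chromosome 3, and their listed differences ran from 8.24 to 16.4 points in the authors' deposited table. The site of smallest p, at 144274634, averaged 40.3% on the low diet and 55.4% on the high diet in the authors' deposited table (q = 9.75e-05). The other Selenof sites had a mean of the 2 averages under 30%, a level at which 79.5% of all listed sites were higher. Counted by date alone, 47.1% of the 34 number-Sep sites were higher, against 37.9% of the 29 true septin sites. Among the March dates, 1-Mar stood for 2 different genes, a membrane-associated RING finger gene with 1 site and the mitochondrial amidoxime reducing component 1 gene with 2, so a date is not a unique name in this table.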

How the data were processed

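Liver DNA of 13 mice was captured with an Agilent methylation kit and bisulfite sequenced, per the labels' protocols. Tools named in the submitters' processing notes are Bismark, methylKit, Trim Galore and CASAVA 1.8, and the build is mm9; for settings, site test and weighting the sources used here give nothing. Per site the deposited table holds the authors' p-value, q-value, methylation difference in points and, per diet, an average in percent, per the file headers. In sign the difference was that of the high fat/high sucrose average less the other at all 23904 sites, though in size it differed from the difference of averages by a median of 0.90 points.

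Genes came from the listed RefSeq transcript, matched to the RefSeq table for GRCm38.p6, used for names only; all 34 number-Sep rows matched, and no septin transcript had another symbol. A start is the site position minus the listed distance; distances after a start are counted from a point 2 bp before that used for distances upstream, which gave 1 start for 99.9% of features with several sites. Of the 8 septin genes with sites, 5 had a RefSeq promoter window. Sites of a gene within 1000 bp were joined; the joining was tested on simulated data. Counts and medians were set beside those of all listed sites with pandas 2.3.3, with no test across mice or of gene lists. The rule for named sites took per gene the site of smallest p, every promoter or island site, the 3 largest rises and falls, and the 5 partner genes of smallest p; the remaining septin sites, and sites of neighbouring genes, were added after their values were seen. The septins and all lists were chosen with earlier results of these data known.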

Additional observations from a re-analysis of the deposited data

How the results depend on the processing

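Limits on distance and q turned the median septin difference from -10.1 points to 8.46 points within 10000 bp of a listed start and to 0.533 points at q under 0.001, both chosen after seeing the data, where fewer sites remained. Over all listed sites the medians under these limits were 7.48 and 9.63 points. The 29 septin sites became 10 (34.5%) at q under 0.001, beside 23.5% of all listed sites. Within 10000 bp of a listed start they became 13 (44.8%), beside 52.4% of all listed sites. Stricter limits keep fewer sites. The share of partner sites higher moved from 48.1% to 33.3% at q under 0.001, where 6 sites remained. The share of septin sites higher, under 50% in the main count, ran from 28.6% (21 sites of 10 points or more) to 53.8% (within 10000 bp of a start), and that of Septin9 from 30.8% (10 points or more) to 66.7% (6 sites at q under 0.001). The share over all listed sites of 10 points or more is not given here, so the shares at that limit have no background beside them. The median septin difference kept its sign in the other alternatives run for it, among them -9.77 points by the difference of averages and -6.56 points without Septin11, an alternative chosen after seeing the data. No paired analysis was possible because the table has no columns for single mice. Coverage minimums and leaving out mice were not run, and coverage limits each average by an unknown amount.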
